A study of Mus musculus with 20 samples.

Results

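Whole blood drawn 20 days after tumour cells were inoculated was compared with blood of the same animals drawn at day 15. The members are the 8 arrays titled day 20 or day 15, 4 of each, of 20 in all, and they were chosen by their titles and matched by the mouse number in them. The animals were 4 female C57Bl/6 mice, numbered 305, 310, 315 and 320, that had received Hepa1-6 cells, a mouse hepatoma line, under the skin, so both groups carried tumour cells and differed by 5 days of time. The other 12 arrays hold blood of the same mice at days 0, 10 and 25, day 0 being before inoculation. Each array held the mouse RNA in Cy5 beside a common reference in Cy3, labelled as blood RNA of untreated female C57Bl/6 mice, and values are log2(Cy5/Cy3), so that 0 is the level of the reference. Each day was hybridised on a slide of its own, so day and slide cannot be told apart, and mice without tumour cells at these days were not analysed here, so that tumour and passing time cannot be told apart either.

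Blood RNA is a mixture from red cell precursors, platelets, granulocytes, monocytes and lymphocytes, and a tumour can shift both the numbers of these cells and the genes they transcribe. In such bulk samples, fewer cells of a type and less RNA per cell cannot be told apart. Lymphocytes are rich in transcripts of ribosomal proteins and of antigen presentation, while maturing red cells carry transcripts of the machinery that removes their mitochondria.

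Before the results, 3 facts about the arrays need to be given. The day 20 array of mouse 305 stood apart: its mean correlation across genes with the rest of its day was 0.41, beside 0.619 to 0.653 for mice 310, 315 and 320 on that day and 0.767 to 0.832 for the 4 arrays of day 15. That array also had a group of bright Cy5 spots, described with the genes they touch. The reference went against its label: of the Y-linked genes, Eif2s3y was well above background in Cy3 on 20 of 20 arrays (net intensity 180 to 405) and in Cy5 on 0, while the Xist probe that stands for the gene was well above background in Cy5 on 20 arrays (295 to 4030) and in Cy3 on 0. Ddx3y and Kdm5d were well above background in Cy3 on 20 and 17 arrays and in Cy5 on 0. A second Ddx3y probe was so in Cy3 on 7 arrays, and the probes of Uty were so in neither channel on any array. The median net Cy5 intensity was 13.3 to 16.8 at day 20 and 13.0 to 16.4 at day 15, and 38.7% to 43.6% of spots at day 20 and 38.1% to 39.4% at day 15 were well above background in Cy5. The spike-in controls gave a median log ratio of -0.65 at day 20 and -0.32 at day 15.

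Few genes differed between the 2 bleeds when all arrays were used. Of 15162 genes tested with limma, 21 were higher at day 20 (0.139%), 4 were lower (0.0264%) and 25 were called in all (0.165%) at an adjusted p under 0.05. All 25 moved the same way in 4 of 4 mice, with no overlap between the groups, which follows largely from choosing them by p. Over all genes, every day 20 value lay above every day 15 value in 7.17%, and below in 5.65%. At an unadjusted p under 0.05, 1415 genes were higher (9.33%) and 1191 lower (7.86%). All genes had a median difference of 0.0071. With mouse as a block, which the shared animals allow, 33 genes were higher and 15 lower, 48 in all (0.317%), and 21 of the 25 were among them. The split by direction depended on the scaling: 471 genes were higher and 1385 lower with scaling between arrays (5 of the 25 among them), 1556 higher and 1163 lower in Cy5 alone (25), 314 higher and 533 lower without background correction (25), 670 higher and 610 lower in the scanner log ratio (15), and 0 with median centring in place of loess (399 at an unadjusted p under 0.05). All 25 kept their direction in each of these. The count also rested on single arrays. When the day 20 array of mouse 305 was left out, 603 genes were higher (3.98%) and 406 lower (2.68%), 1009 in all (6.65%), and all 25 were among them. With both arrays of mouse 305 left out the count was 175 (1.15%), and 24 of the 25 were among these. Leaving out the day 20 array of mouse 310, 315 or 320 gave 2, 3 or 3, and without the day 15 array of mouse 305, 310, 315 or 320 it was 3, 12, 2 or 4. Igh-VJ558 and Zc3hav1 kept their call whichever of the 8 arrays was left out, while for the other 23 the highest adjusted p over these repeats lay between 0.107 and 0.221.

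Cirbp, a cold-inducible RNA-binding protein, had the largest rise among the 25 genes called with all arrays. Its log ratio was 1.06, 1.08, 1.10 and 1.38 in mice 305, 310, 315 and 320 at day 20, against -0.01, 0.06, -0.06 and 0.13 at day 15. The difference was 1.13 (SE 0.175, 2.19-fold, adjusted p = 0.0163), and the means were 1.16 ± 0.15 at day 20 and 0.03 ± 0.08 at day 15 (SD, n = 4 each). The mean net Cy5 intensity of its probe was 882 at day 20 and 214 at day 15, while the Cy3 intensity of the same spots was 274 at day 20 and 221 at day 15. Every mouse was near the level of the reference at day 15 and well above it at day 20.

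The calls that held whichever array was left out were those of Igh-VJ558 and Zc3hav1. A probe named Igh-VJ558, for a family of immunoglobulin heavy chain variable segments, read 0.66, 0.68, 0.88 and 0.75 at day 20 and -0.04, -0.01, 0.03 and 0.06 at day 15, a difference of 0.73 (SE 0.0907, adjusted p = 0.00296). Probes of this family are uncertain between near-identical segments, and of the other 8 kept probes with this name 2 changed by 0.36 and 0.48 and 6 by -0.11 to -0.04. Zc3hav1, the zinc-finger antiviral protein that binds viral RNA, read 0.32, 0.38, 0.42 and 0.32 at day 20 and -0.03, 0.02, 0.00 and -0.12 at day 15. It rose by 0.39 (SE 0.052, adjusted p = 0.00394), while its other kept probes changed by 0.21 and -0.04. The groups do not overlap for either.

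**Figure D1:**
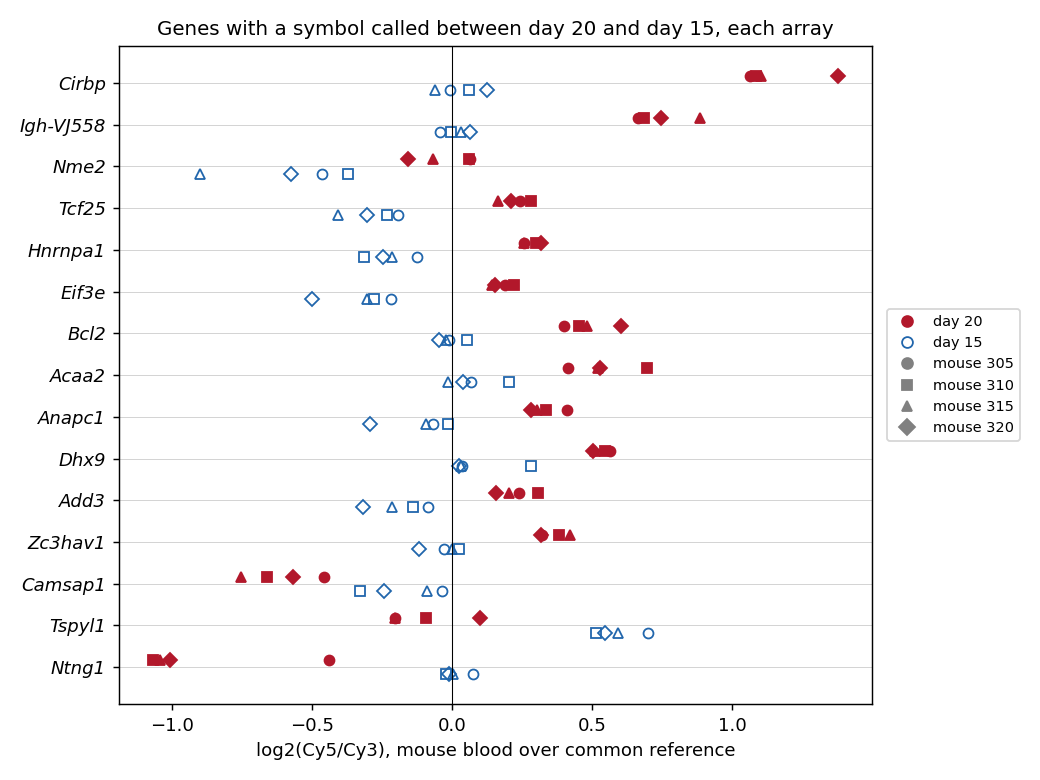
Log2(Cy5/Cy3) of the 15 named genes called between day 20 (filled) and day 15 (open), one symbol per mouse, ordered by the difference. The day 20 values of Cirbp lie between 1.06 and 1.38 and those of day 15 between -0.06 and 0.13, and no gene shown has overlapping groups.

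Eif3e, a subunit of the initiation factor that brings mRNA to the ribosome, read 0.19, 0.22, 0.14 and 0.15 at day 20 and -0.22, -0.28, -0.30 and -0.50 at day 15, a difference of 0.50 (SE 0.0964, adjusted p = 0.0483). Hnrnpa1, which packages nascent RNA and steers splicing, read 0.25, 0.30, 0.26 and 0.32 at day 20 and -0.13, -0.32, -0.22 and -0.25 at day 15. Its difference was 0.51 (SE 0.0961, adjusted p = 0.0483). Tcf25, a factor of ribosome-associated quality control, lay between 0.16 and 0.28 at day 20 and between -0.41 and -0.19 at day 15 and rose by 0.51 (SE 0.0779, adjusted p = 0.0163). Dhx9, an RNA helicase, rose by 0.44 (SE 0.0864), its adjusted p being 0.0483 and 0.0517 with mouse as a block. Nme2, which regenerates nucleoside triphosphates, lay between -0.16 and 0.06 at day 20 and between -0.90 and -0.37 at day 15, a rise of 0.55 (SE 0.108, adjusted p = 0.0483). Other kept probes changed less, by 0.17 for Eif3e, by 0.04 and 0.07 for Hnrnpa1, and by 0.30 and 0.08 for Tcf25.

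The rest of the named rises had varied roles. Bcl2, which blocks mitochondrial apoptosis and keeps lymphocytes alive, read 0.40, 0.45, 0.48 and 0.60 at day 20 and -0.01, 0.05, -0.02 and -0.05 at day 15. It rose by 0.49 (SE 0.0844, adjusted p = 0.0387), but the other 2 kept probes of Bcl2 changed by -0.06 and -0.02. Anapc1, the scaffold of the anaphase-promoting complex, rose by 0.45 and Anapc5, another subunit, by 0.32. Other kept probes changed by -0.07 to 0.01 for Anapc1 and by 0.07 for Anapc5. Add3, an adducin of the membrane skeleton, rose by 0.42, with its other kept probe at -0.11. Acaa2, a mitochondrial thiolase of fatty acid oxidation, rose by 0.46. Blocking by mouse gave adjusted p-values of 0.0558 for Acaa2, 0.0547 for Anapc5 and 0.0521 for Atp1b3, a sodium pump subunit that had risen by 0.29. Rpia, the ribose-5-phosphate isomerase of the pentose phosphate pathway, rose by 0.32, Ankra2 by 0.37 and Fam107b by 0.35. Other kept probes changed by 0.15 for Ankra2, by 0.12 and 0.20 for Fam107b, and by 0.13 and -0.10 for Atp1b3. These last 5 (Anapc5, Atp1b3, Rpia, Ankra2 and Fam107b) fall outside the 12 that the naming rule takes and were named after their values were seen. A further 4 probes that rose have only clone or transcript names.

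Among the 4 falls the lowest was Ntng1. Ntng1, named for an axon guidance protein, read -0.44, -1.07, -1.04 and -1.01 at day 20 and 0.07, -0.02, 0.00 and -0.01 at day 15, a difference of -0.90 (SE 0.176, adjusted p = 0.0483). The probe was well above background on 8 of 8 arrays, but 3 other probes of the gene were above background on none, so the name is uncertain. The day 20 value of mouse 305 is nearest to day 15, and without that array the difference was -1.05 (SE 0.17, adjusted p = 0.00891). Tspyl1, an autosomal member of the nucleosome assembly protein family, read -0.21, -0.09, -0.21 and 0.10 at day 20 and 0.70, 0.51, 0.59 and 0.55 at day 15, and fell by 0.69 on the log2 scale (SE 0.115, adjusted p = 0.0325). Camsap1, which caps the minus ends of microtubules, fell by 0.44 on that scale, while its other kept probe changed by 0.04. The unnamed gene 2610524H06Rik fell by 0.75. Over the 25 called genes, 14 had other kept probes, 29 in number, and 15 of these 29 had the sign of the probe that stands for the gene.

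The Cy3 channel holds the common reference and no RNA of the 4 mice. In Cy3 alone 604 genes were called between the day 20 and day 15 slides (3.98%), and 0 of the 25 were among them. The genes were chosen on the log ratio of these channels, so their channel values are a description. Cirbp changed by 1.22 in Cy5 (SE 0.17) and by 0.10 in Cy3 (SE 0.047), and Ntng1 by -0.87 in Cy5 (SE 0.126) and by 0.04 in Cy3 (SE 0.0297). Some Cy3 changes were larger, such as 0.19 for Add3 (SE 0.0804), beside 0.66 in Cy5 (SE 0.101). The Cy3 change was opposite in sign to the log ratio change for 3 of the 25, beside 50.5% of all genes. All 25 changed more in Cy5 than in Cy3.

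Across all 5 bleeds, most of these genes had their extreme day mean at day 15, which is a description, since the same day 15 arrays chose them. The lowest of the 5 day means was that of day 15 for 19 of the 21 genes higher at day 20, against 18.2% of all genes, and day 15 was highest for 4 of the 4 lower ones, against 12.2% of all genes. The day means of Cirbp at days 0, 10, 15, 20 and 25 were 1.08, 0.80, 0.03, 1.16 and 1.19. Those of Bcl2 were 0.65, 0.25, -0.01, 0.48 and 0.55, and those of Ntng1 were -0.60, -1.17, 0.01, -0.89 and -0.48. Cirbp, Igh-VJ558, Acaa2 and Ntng1 are 4 of 38 genes within 0.1 of the reference at day 15 and more than 0.3 from it, to the same side, at each of the other 4 days. As many as 25 genes had that pattern with day 25 as the odd day, and 3, 4 and 0 had it with day 0, day 10 and day 20. Per the file headers, the day 15 slide alone was read with a fitted spot grid of its own, and the part of this in the result was not tested.

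**Figure D2:**
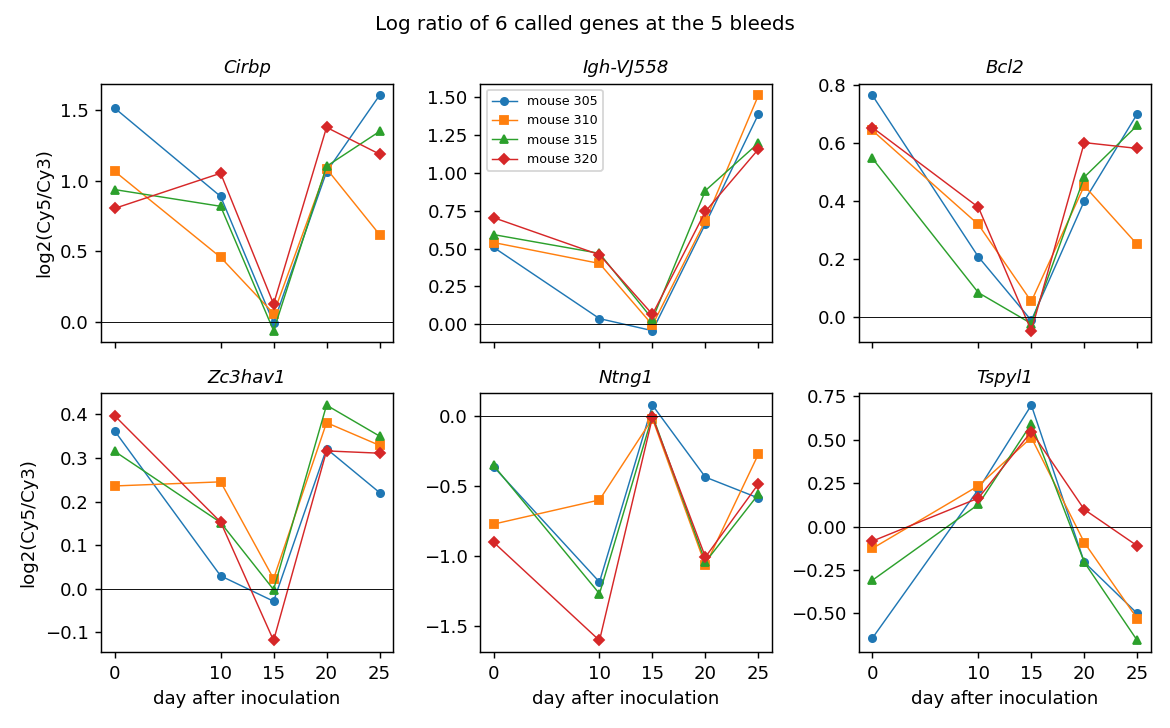
Log2(Cy5/Cy3) of 6 called genes in each mouse at days 0, 10, 15, 20 and 25 after inoculation, one line per mouse. Cirbp, Igh-VJ558, Bcl2 and Zc3hav1 have their lowest day mean at day 15, and Ntng1 and Tspyl1 their highest.

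The largest differences were mostly not called. At least 2-fold differences were found in 13 genes (0.0857%), 12 higher and 1 lower, and Cirbp was the only called one. For 7 of them a single value decided: on the day 20 array of mouse 305 Slc10a1, Ermard, Cd3e, Hspa4l, Col4a4, Vps13a and Tlr5 read 4.23 to 6.43, while the other 7 arrays read -0.18 to 0.94. Without that array their differences were -0.14 to 0.54, and of these 7 Slc10a1, at 0.54, passed the test (SE 0.151, adjusted p = 0.0428), but not with both arrays of mouse 305 left out (0.116). On that array 47 spots had a net Cy5 intensity over 1000 and over 20 times that of any other day 20 array, and 46 of them lay in rows 340 to 360 and columns 33 to 41 of a grid of 532 rows and 85 columns, with all 7 genes among the 73 kept genes of that block. No other array of the 2 days had more than 1 such spot. The Cy3 intensity of these spots stayed low: Hspa4l read 34420 in Cy5 and 10.9 in Cy3. None of the 25 called genes lies in the block, and with its spots left out 28 genes were called, all 25 among them. Cd3e, a chain of the T cell receptor complex, is one of these genes: it read 5.72, 0.33, 0.49 and 0.55 at day 20, against 0.10, 0.51, 0.10 and 0.17 at day 15, and its difference of 1.55 (SE 0.764, adjusted p = 0.306) became 0.24 (SE 0.122, adjusted p = 0.226) without the array.

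**Figure D3:**
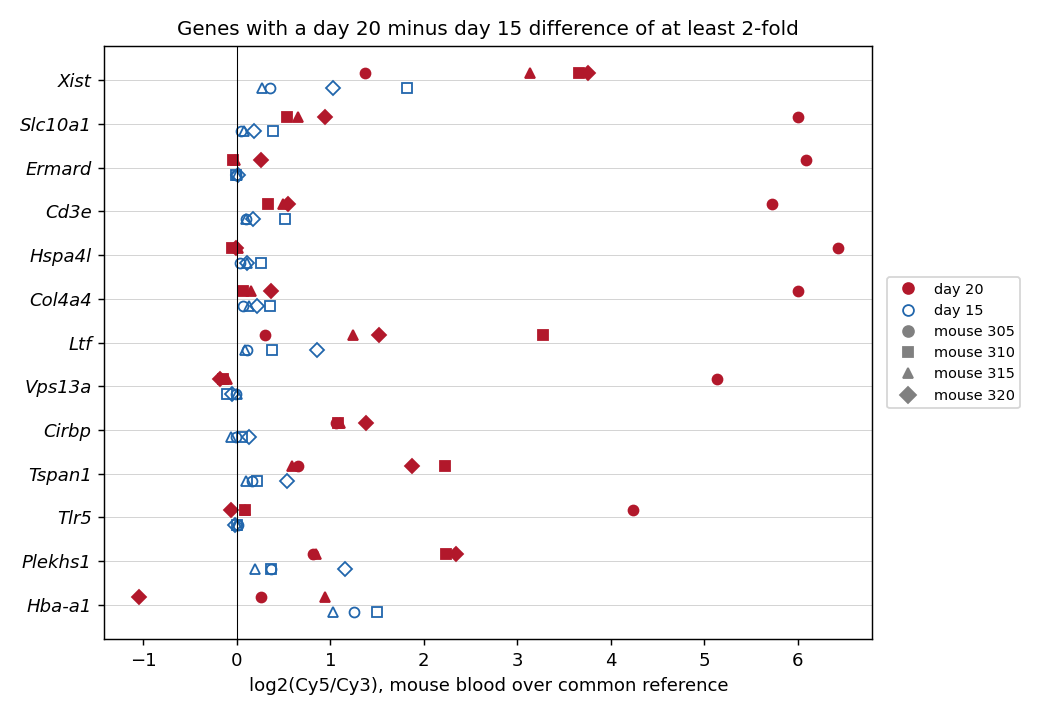
Log2(Cy5/Cy3) on each array of the 13 genes with at least a 2-fold difference between day 20 (filled) and day 15 (open), one symbol per mouse. For 7 genes the day 20 array of mouse 305 alone lies above 4. Of the others, Cirbp, Xist, Ltf, Plekhs1 and Tspan1 are higher at day 20 in all mice measured.

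Xist, Ltf, Hba-a1, Plekhs1 and Tspan1 make up the rest of the 13 and varied between mice. Xist, the RNA that coats the inactive X chromosome, read 1.37, 3.66, 3.14 and 3.76 at day 20 and 0.35, 1.82, 0.27 and 1.03 at day 15. Its log ratio difference of 2.12 was not called (SE 0.677, adjusted p = 0.178). Without the day 20 array of mouse 305 the log ratio rose by 2.65 (SE 0.668, adjusted p = 0.0285), but Xist was not called with both arrays of that mouse left out (0.0829). The mean net Cy5 intensity of Xist was 768 at day 20 and 410 at day 15, and Cy3 was near background on both days, and not well above background on any array. In Cy5 alone with all arrays Xist changed by 0.41 (SE 0.154), so the size of its change in log ratio, over a reference near background, is uncertain. Ltf, lactoferrin of neutrophil granules, read 0.30, 3.28, 1.24 and 1.52 at day 20 and 0.11, 0.38, 0.08 and 0.86 at day 15 (difference 1.23, SE 0.588, adjusted p = 0.292). Its log ratio was higher in 4 of 4 mice, by widely different amounts, while in Cy5 alone with all arrays Ltf changed by 0.30 (SE 0.375). Hba-a1, an alpha globin, was measured in 3 mice on each day and read 0.25, 0.94 and -1.04 in mice 305, 315 and 320 at day 20 and 1.26, 1.49 and 1.03 in mice 305, 310 and 315 at day 15 (difference -1.21, SE 0.391, adjusted p = 0.179). Its groups did not overlap, but the spread at day 20 was large, and signal from near-identical globin copies cannot be separated. Plekhs1 and Tspan1 were also higher in 4 of 4 mice. They differed by 1.04 (SE 0.637, adjusted p = 0.398) and 1.09 (SE 0.59, adjusted p = 0.35).

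Gene lists of blood cell types and functions were described by their counts and medians. Of 692 listed genes tested 3 were called with all arrays, namely Hnrnpa1, Eif3e and Bcl2, beside 25 of all 15162 genes (0.165%). No called gene was held by 36 of 39 lists, which with so few calls says little about a single list. Leaving out the day 20 array of mouse 305 gave 30 called higher and 8 lower, which is 5.49% of the listed genes, beside 6.65% of all genes. Of these 38, 8 stayed called with both arrays of mouse 305 left out, which is 1.16% of the listed genes, beside 1.15% of all genes. List medians were all small, from -0.24 to 0.24, beside 0.0071 for all genes.

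Transcripts of cytosolic ribosomal proteins had the highest median. Of 43 listed genes 39 were kept, their median difference was 0.24, and 35 were above 0, with 21 above 0 at an unadjusted p under 0.05 (9.33% of all genes) and 9 with all day 20 values above all day 15 values (7.17% of all genes). None was called with all arrays. The list median by mouse was 0.34, 0.14, 0.42 and -0.02 in mice 305, 310, 315 and 320, so mouse 320 did not share it. Rpl3, of the large subunit, read -0.44, -0.09, 0.54 and 0.19 at day 20 and -0.53, -0.48, -0.99 and -0.60 at day 15 (difference 0.70, SE 0.177, adjusted p = 0.114). Rpl6 differed by 0.38 and Rpl36 by 0.39, and all 3 genes were higher in 4 of 4 mice with no overlap. They were named for their small p, so this follows largely from the choice. Without the day 20 array of mouse 305 these 3 rose, by 0.86 for Rpl3 (adjusted p = 0.0118), 0.44 for Rpl6 (0.0155) and 0.38 for Rpl36 (0.0269). With both arrays of that mouse left out Rpl3 and Rpl6 stayed called (adjusted p = 0.0393 each) and Rpl36 did not (0.0709). The median lay above 0 in every setting tried, but its size moved to 0.81 with median centring, which is 0.69 relative to all genes, and to 1.80 with scaling between arrays. Signal from ribosomal protein pseudogenes cannot be told from these transcripts.

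Translation factors gave a median of 0.03 over 28 genes, with Eif3e the only call. At an unadjusted p under 0.05, 8 were higher and 3 lower (39.3%, beside 17.2% of all genes). The lower ones were Eif1 at -0.55, Eif4ebp1 at -0.41 and Eif4g2 at -0.21. Each had all day 20 values below all day 15 values (3 of the 28, beside 5.65% of all genes). Eef1g, a subunit of the elongation factor complex, differed by 0.42 (adjusted p = 0.0647, and adjusted p = 0.0373 with mouse as a block), and Eif3b, a further eIF3 subunit, by 0.31 (adjusted p = 0.0788). Without the day 20 array of mouse 305 both rose, by 0.39 and 0.34, as did Eif2s3x, of the factor that delivers the initiator tRNA, by 0.35. With both arrays of that mouse left out Eif3b stayed called (adjusted p = 0.0496) and Eef1g and Eif2s3x did not (0.0696 each). Among genes called only with mouse as a block, Rps3a1, Rps25 and Eif3l were higher, by 0.57, 0.53 and 0.46. The 3 lower factors, and genes called only with the block or only without that array, were named after their values were seen.

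Classical MHC class II chains present peptides on B cells, monocytes and dendritic cells, while H2-Oa and H2-Ob form a B cell chaperone that restrains peptide loading. The promoters of the 4 genes of this list with the smallest p are shown because a short motif recurs in them. They are the 100 bases before the start in RefSeq (GRCm38.p6), 5′ to 3′ on the strand of the gene, with the letters GATTGG and CCAATC in capitals, the sense and antisense forms of the core of the Y box that the factor NF-Y is known to bind in class II promoters.
H2-Oa, chr17:34092279-34092378, + strand: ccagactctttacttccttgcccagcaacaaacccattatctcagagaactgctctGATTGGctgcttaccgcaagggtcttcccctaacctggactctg
H2-Aa, chr17:34287824-34287923, - strand: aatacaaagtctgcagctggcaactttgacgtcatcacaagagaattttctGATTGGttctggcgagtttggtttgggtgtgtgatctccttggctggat
H2-Eb1, chr17:34305767-34305866, + strand: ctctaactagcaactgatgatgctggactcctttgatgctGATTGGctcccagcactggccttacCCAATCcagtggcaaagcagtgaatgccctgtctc
H2-Ob, chr17:34238805-34238904, + strand: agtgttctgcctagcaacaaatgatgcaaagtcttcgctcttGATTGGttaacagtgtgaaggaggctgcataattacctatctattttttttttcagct

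The motif begins at -44, -49, -60 and -58 from the start in H2-Oa, H2-Aa, H2-Eb1 and H2-Ob. It was found on either strand in 6 of 9 promoters of the list that matched, against 9.11% of all promoters over the same 100 bases. A match is a description of the letters and not a measured site.

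The class II list had a median of 0.16 over 12 genes, beside 0.0071 for all genes. By mouse it was 0.08, -0.03, 0.32 and 0.26 in mice 305, 310, 315 and 320, so mouse 310 did not share it, and it was 0.04 without the day 15 array of mouse 315 and 0.59 with median centring. None was called with all arrays (limma, with 4 higher and 1 lower at an unadjusted p under 0.05, 41.7% beside 17.2% of all genes). H2-Oa read 0.54, 0.34, 0.45 and 0.51 at day 20 and 0.09, 0.14, -0.02 and -0.02 at day 15 (difference 0.41, SE 0.0824, adjusted p = 0.0501, and adjusted p = 0.0487 with mouse as a block). H2-Aa read 0.38, 0.23, 0.52 and 0.48 at day 20 and 0.02, 0.09, -0.16 and -0.24 at day 15 (difference 0.48, SE 0.123, adjusted p = 0.118). H2-Eb1 read 0.25, -0.01, 0.29 and 0.12 at day 20 and -0.04, -0.25, -0.25 and -0.30 at day 15 (difference 0.37, SE 0.101, adjusted p = 0.137, and adjusted p = 0.0289 with the block). All 3 were higher in 4 of 4 mice with no overlap (4 of the 12 genes of the list, beside 7.17% of all genes). They were named for their small p, so this follows largely from the choice. H2-Ob had lower log ratios, at -0.05, -0.52, -0.41 and -0.39 at day 20 and -0.02, -0.09, -0.01 and -0.07 at day 15 (difference -0.30, SE 0.114, adjusted p = 0.216). In Cy5 alone H2-Ob changed by -0.06 (SE 0.105) with all arrays. Without the day 20 array of mouse 305, H2-Oa rose by 0.38 (adjusted p = 0.0225) and H2-Aa by 0.48 (0.0424), H2-Ob fell by 0.39 (0.0423), and H2-Eb1 differed by 0.35 (0.0669). With both arrays of that mouse left out 0 of the list were called: the adjusted p was 0.0571 for H2-Oa, 0.0799 for H2-Aa and 0.103 for H2-Ob. Ciita, the coactivator of these genes, gave an SE of 0.13 around a difference of -0.00.

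**Figure D4:**
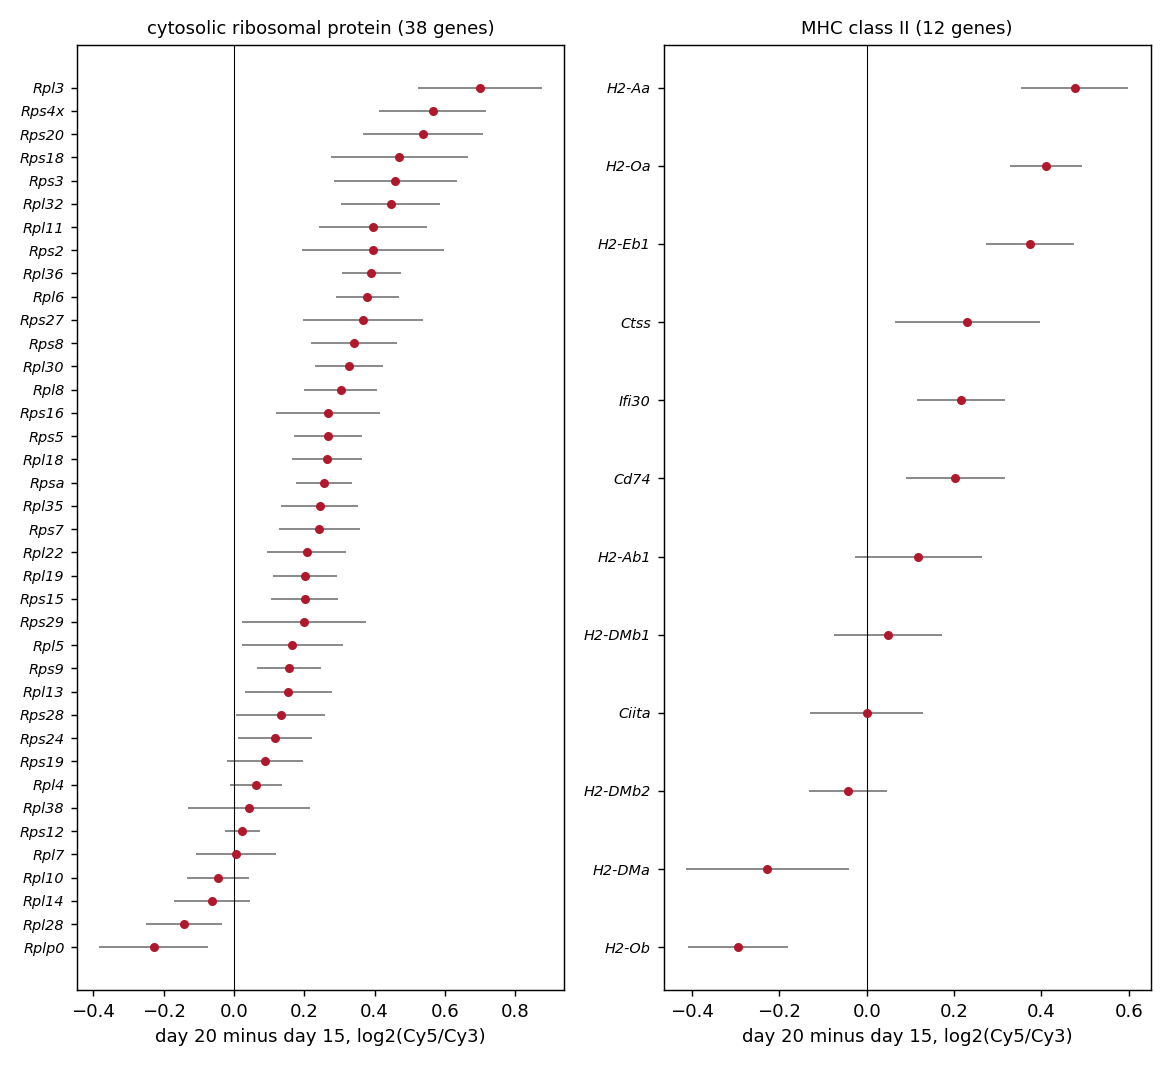
Day 20 minus day 15 difference in log2(Cy5/Cy3), with its standard error as a bar, for 38 of the cytosolic ribosomal protein genes and the 12 MHC class II genes kept. Of the ribosomal protein genes shown 34 lie above 0, and in the class II list H2-Aa, H2-Oa and H2-Eb1 lie highest and H2-Ob lowest.

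Lymphocyte markers lay mostly above 0 and none was called with all arrays. At an unadjusted p under 0.05 (limma), 6 B cell and 5 T cell genes were higher (30% and 25%), beside 9.33% of all genes. The B cell list had a median of 0.11 over 20 genes, 16 of them above 0, and the T cell list one of 0.13 over 20 genes, 16 of them above 0. Pou2af1, a B cell coactivator of immunoglobulin genes, read -0.10, -0.19, -0.24 and -0.27 at day 20 and -0.64, -0.59, -0.87 and -0.83 at day 15. Its difference was 0.53 (SE 0.108, adjusted p = 0.0508, and adjusted p = 0.0289 with mouse as a block), and it rose by 0.50 without the day 20 array of mouse 305 (adjusted p = 0.0227) but was not called with both arrays of that mouse left out (0.0526). Cd79b, of the B cell receptor, differed by 0.51 (SE 0.196), Blnk, its adaptor, by 0.48 (SE 0.17), and Ms4a1, which encodes CD20, by 0.39 (SE 0.163). Cd8b1 and Cd8a, the chains of the CD8 coreceptor, differed by 0.48 (SE 0.144) and 0.25 (SE 0.0815), and Cd8a rose without that array, by 0.30 (adjusted p = 0.0392), as did Cd5, by 0.32. With both arrays of that mouse left out neither was called (adjusted p = 0.107 and 0.11). Both medians lay above 0 in every setting tried, and that of the T cell list was 0.06 without the day 15 array of mouse 320. The cytotoxic and NK cell list had a median of 0.01.

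The mature neutrophil and the monocyte and macrophage lists differed in direction between mice. The neutrophil list had a median of -0.14 over 21 genes, which was -0.05, 0.37, -0.33 and -0.45 by mouse and turned to 0.12 with median centring in place of loess. It was -0.07 without the day 20 array of mouse 315, -0.05 without that of mouse 320 and -0.25 without that of mouse 310. S100a8, a subunit of calprotectin, read -0.74, -0.13, -0.89 and -1.03 at day 20 and -0.08, -0.50, -0.10 and -0.12 at day 15 (difference -0.50, SE 0.23, adjusted p = 0.276), so that mouse 310 ran against the others. S100a9, its partner, differed by -0.42 (SE 0.274). The monocyte and macrophage list had a median of 0.09 over 16 genes, which was 0.02, 0.31, 0.12 and -0.03 by mouse, -0.01 with scaling between arrays, 0.16 without the day 20 array of mouse 320 and 0.0019 without that of mouse 310. Granule proteins of immature granulocytes had a median of 0.08, above 0 in 4 of 4 mice (0.01, 0.11, 0.08 and 0.02), and eosinophil and basophil genes one of -0.05, below 0 in 4 of 4 mice, though the first turned negative with scaling between arrays and the second positive with median centring, in Cy5 alone, under the strict filter on dim probes and without the day 20 array of mouse 310. In the neutrophil and monocyte lists 0 genes were called with all arrays or without the day 20 array of mouse 305 (limma, with 4 and 5 genes at an unadjusted p under 0.05, 19% and 31.2%, beside 17.2% of all genes).

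Platelet and autophagy genes had the lowest medians. The platelet list stood at -0.24 over 18 genes, 16 below 0, and below 0 in 4 of 4 mice, and the autophagy and mitochondrial clearance list at -0.21 over 18 genes, 16 below 0 and below 0 in 4 of 4 mice. Both medians turned positive with median centring in place of loess (0.25 and 0.14), and the platelet median also with scaling between arrays (1.72). With centring the median of all genes moved to 0.11, which leaves 0.14 and 0.03 relative to it. The autophagy median was -0.12 without the day 20 array of mouse 305 or the day 15 array of mouse 315 and -0.13 without the day 20 array of mouse 320, and the platelet median was -0.13 without the day 20 array of mouse 315. Bnip3l, the receptor that targets mitochondria for removal in maturing red cells, read -0.08, 0.13, 0.20 and 0.09 at day 20 and 0.56, 0.75, 0.72 and 1.34 at day 15 (difference -0.76, SE 0.211, adjusted p = 0.15). Gabarapl2, a membrane tag of autophagosomes, differed by -0.60 (SE 0.209), Sqstm1, a cargo adaptor, by -0.52 (SE 0.187) and Map1lc3b by -0.43 (SE 0.188). All 4 had every day 20 value below every day 15 value (6 of the 18, beside 5.65% of all genes). They were named for their small p, so this follows largely from the choice. In Cy5 alone with all arrays Bnip3l changed by -0.27 (SE 0.225) and Map1lc3b by -0.17 (SE 0.173). Gabarapl2 changed there by -0.44 (SE 0.154) and Sqstm1 by -0.53 (SE 0.252). In the platelet list Gp1bb, of the von Willebrand factor receptor, read -0.71, -0.40, -0.80 and -0.44 at day 20 and -0.11, -0.10, -0.01 and -0.27 at day 15 (difference -0.46, SE 0.166, adjusted p = 0.198), and Gp6, the collagen receptor, differed by -0.49 (SE 0.184). Pf4 differed by -0.01 (SE 0.224). The erythroid list had a median of -0.14 over 25 genes, which turned to 0.24 with centring and ranged from -0.24 without the day 15 array of mouse 305 to -0.07 without the day 20 array of mouse 320, and Slc4a1, the red cell anion exchanger, differed by -0.22 (SE 0.27). No gene of these 3 lists was called with all arrays or without the day 20 array of mouse 305. At an unadjusted p under 0.05 (limma) there were 2 platelet, 5 autophagy and 2 erythroid genes (11.1%, 27.8% and 8%), all of them lower. Over all genes 7.86% were lower at that threshold, and 17.2% differed in either direction.

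**Figure D5:**
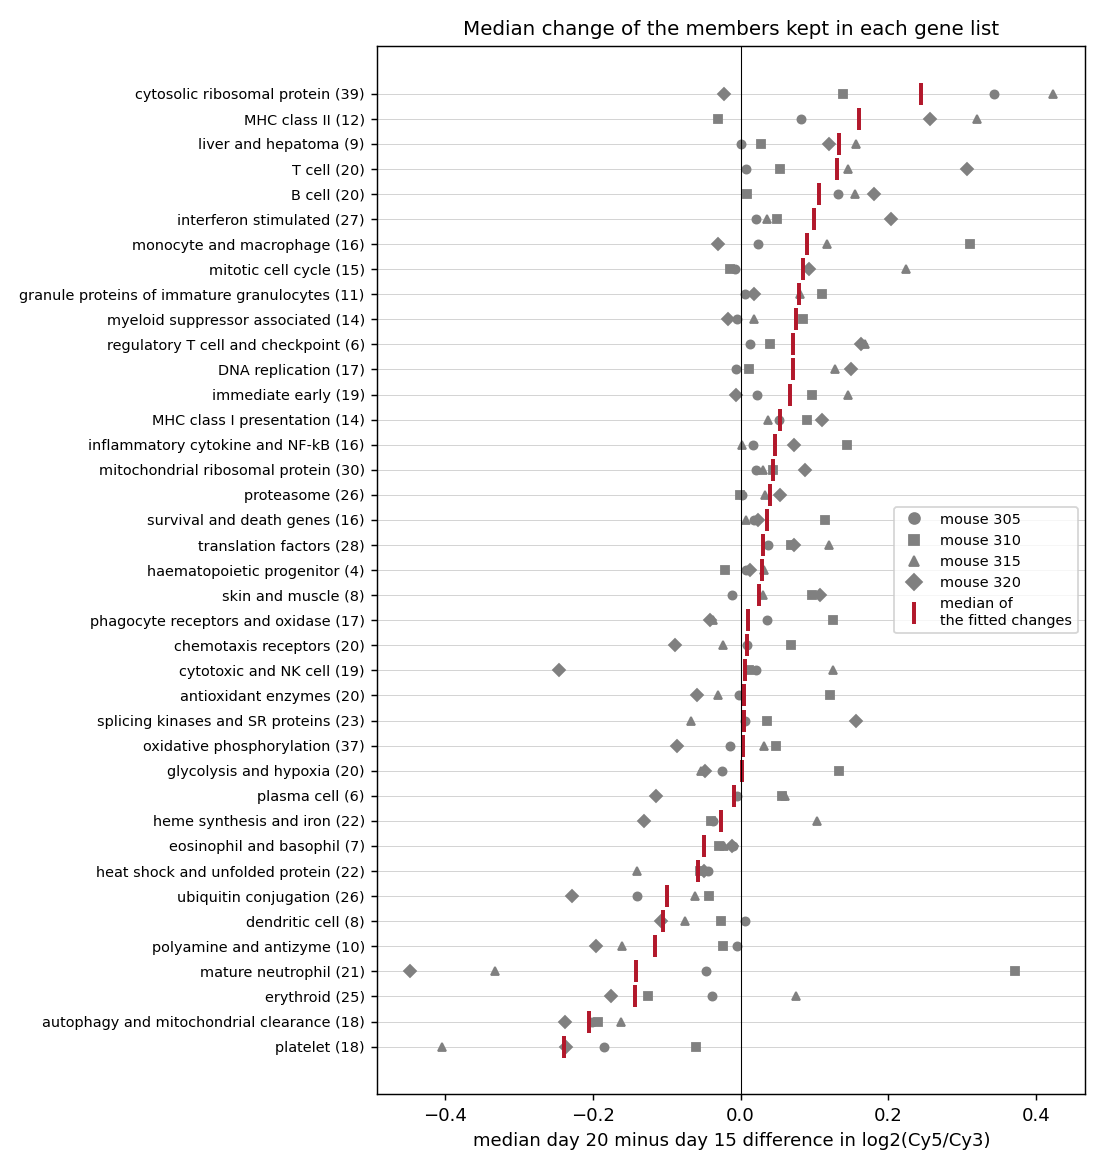
Median day 20 minus day 15 difference in log2(Cy5/Cy3) of the genes kept in each of 39 lists (number in brackets), with the median of the fitted differences as a bar and the median within each mouse as a symbol. Cytosolic ribosomal proteins lie highest at 0.24 and platelet genes lowest at -0.24.

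Several smaller groups held single genes that moved without the day 20 array of mouse 305 and not with all arrays. In that setting 3.98% of all genes were higher and 2.68% lower. Of the 22 heat shock and unfolded protein genes 3 were lower, among them Dnaja1, a partner of Hsp70 chaperones, which fell by 0.63 on the log2 scale. In Cy5 alone with all arrays, Dnaja1 changed by -0.31 (SE 0.0926), Dnajb9 by 0.57 (SE 0.341) and Xbp1 by -0.03 (SE 0.0559). The net Cy5 intensity of Dnajb9 was -2596 on 1 day 15 array. With both arrays of mouse 305 left out 0 of the 3 were called. Of 37 oxidative phosphorylation genes 4 rose without the day 20 array of that mouse, Uqcrfs1 and Uqcrc1 of complex III by 0.42 and 0.36, Cox7c by 0.38 and Ndufv1 by 0.21. With both arrays of mouse 305 left out Cox7c alone stayed called (adjusted p = 0.0481). In Cy5 alone with all arrays, though, Cox7c changed by 0.06 (SE 0.0602). With mouse as a block the same list was split, with Uqcrc1 and Uqcrfs1 higher (adjusted p = 0.0373 and 0.0487) and Ndufa1 and Cox7b lower, by 0.46 and 0.48 on the log2 scale (adjusted p = 0.0333 and 0.0488). Of genes of cell death, Bak1, a pore-forming partner of Bcl2, rose by 0.78 and Bmf by 0.29, and neither was called with both arrays of mouse 305 left out (adjusted p = 0.112 and 0.0798). The difference of Bak1 with all arrays turned from 0.55 to -1.22 with scaling between arrays and to -0.38 in Cy5 alone. In the polyamine list Oaz1, the antizyme, differed by -0.66 (SE 0.206, n = 3 at day 15) and Smox by -0.59 (SE 0.167), and neither was called. Ube2e3, a ubiquitin-conjugating enzyme, differed by -0.68 (SE 0.179, adjusted p = 0.122, and adjusted p = 0.0373 with mouse as a block).

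None of the 9 kept genes of the liver and hepatoma list was called (limma, with 0 at an unadjusted p under 0.05, beside 17.2% of all genes). Their median was 0.13, which fell below 0 with scaling between arrays, in Cy5 alone, without background correction and in the scanner log ratio (-0.05, -0.03, -0.09 and -0.58). Alb, albumin, was well above background on 1 of 4 arrays at day 20 and 0 of 4 at day 15, and no fold is given for it. Afp, alpha-fetoprotein, differed by 0.01 (SE 0.0619). Of the 15162 genes, 73 were well above background on 4 of 4 arrays at day 20 and 0 of 4 at day 15, and 16 the other way round. The defining markers of blood, such as Cd79a, Csf3r, Csf1r, Slc4a1 and Pf4, were well above background on all 8 arrays, while Camp was so on 1 of 4 at each day. Ly6c2, Cd4 and Alas2 did not pass the filter on dim probes.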

How the data were processed

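Blood RNA of 4 mice on 5 days was measured on 20 two-colour Agilent whole-genome arrays, Cy5 holding the mouse sample per the labels. Scanner files came from Agilent Feature Extraction (version 9.1.3.1 by the submitters' processing notes). As the authors deposited them, they give the mean and local background intensity of each spot in both channels, and a log10 ratio of red over green. The deposited value table holds the same log10 ratio, unchanged in 900360 of 900360 values (tolerance 1e-06). Log2 ratios were computed here from the deposited intensities with limma 3.58.1 in R 4.3.3 (normexp with offset 50, loess within arrays, control spots at weight 0, outlier flags left out).

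Of 41174 probes, 20920 were well above background in Cy5 on at least 4 of 20 arrays and had a value on 3 or more arrays of each day. The brightest probe stood for each of 15162 genes, of which 4337 had several kept probes. Probes were named through RefSeq (GRCm38.p6) by accession (56.8%), symbol (16.4%) or synonym (7.08%), and 19.8% kept the name of the file. One limma fit over all 20 arrays, with 5 day means and 15 residual degrees of freedom, gave day 20 minus day 15, adjusted by Benjamini-Hochberg, with calls at an adjusted p under 0.05. The fit was also run on simulated data with independent noise. These had no mouse or slide effect and no deviant array, so the run does not bear on such effects here. Precision is limited by the number of arrays. The p-values rest on a spread pooled over the 5 days, with the bleeds of the same 4 mice taken as independent except with mouse as a block. They cannot measure the spread between slides, since each day had a slide of its own. Day and slide cannot be told apart, and days 15, 20 and 25 shared a scan day.

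Mouse numbers mark the same animal, so the mouse was also fitted as a block. Same-mouse deviations correlated at 0.46, 0.0687, -0.000524 and 0.163 for mice 305, 310, 315 and 320. Named genes were the up to 12 largest rises and falls among called genes with a symbol and 1 sign in every mouse, the 4 members of each list with the smallest p, and fixed cell type checks, of which a few genes are not reported here. The comparison, its 39 lists and its tests were chosen with earlier results of these data known. Alternatives covered normalization, background, filter, block, arrays fitted, variance prior, probe choice and each array left out.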

Additional observations from a re-analysis of the deposited data

Results flagged for a closer look

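In 33 of 385 groups of 4 arrays (195 genes, 8.57%) 1 value lay far from the other 3 by Dixon's test. In an unselected set chance gives about 1 in 20, but these genes were selected. Some were included for a difference of at least 2-fold that rested on the far value itself, so the shares cannot be compared. On the day 20 array of mouse 305 there were 13 such log ratios. Those in the bright block were 5.723 for Cd3e, 6.003 for Col4a4, 6.084 for Ermard, 6.425 for Hspa4l, 6 for Slc10a1, 4.234 for Tlr5 and 5.135 for Vps13a. The other 6 were -0.4388 for Ntng1, -0.3692 for Blnk, -0.1315 for Gabarapl2, 0.06529 for Map1lc3b, -0.3615 for Dnaja1 and 0.03582 for Mrps22. Mouse 310 gave 0.6507 for Txn1 and 0.3061 for Tnfaip3 at day 20, and mouse 320 gave 1.377 for Cirbp, -0.8859 for Klrb1c, -0.4239 for Hnrnpu and -1.052 for Gzma.

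At day 15 the array of mouse 310 had 9 such values. They were 0.2818 for Dhx9, 0.07619 for Ccr9, -0.3222 for Ddit4, 0.03762 for Mx2, -0.504 for S100a8, -0.03633 for Jchain, -0.04766 for Havcr2, 0.1894 for Ube2e1 and 0.5106 for Cd3e. Mouse 315 gave -1.42 for Cd79b, 1.31 for Sqstm1, 0.6189 for Dnajb9 and -0.9647 for Ier5, and mouse 320 gave 0.1446 for Clk2.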

How the results depend on the processing

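The number of called genes, 25 (21 higher and 4 lower), moved by over 1.5 times under most alternatives, and the cause was not tested. It was 0 (0 higher, 0 lower) with median centring in place of loess and with the mean of all probes of a gene (399 and 2463 genes at an unadjusted p under 0.05). Scaling between arrays gave 1856 (471 higher, 1385 lower), Cy5 alone 2719 (1556 and 1163), no background correction 847 (314 and 533) and the scanner log ratio 1280 (670 and 610). Without a filter on dim probes it was 7 (6 and 1), with an intensity trend 3 (2 and 1), and with only the 8 arrays 49 (41 and 8). With the mouse as a replicate block it was 48 (33 and 15), and 159 (72 and 87) over the 8 arrays alone. A filter asking for signal on all 8 arrays gave 32 (27 and 5). Leaving out each array in turn gave 2 to 1009 called, 2 to 603 higher and 0 to 406 lower. Of alternatives chosen after seeing the data, a normexp offset of 10 gave 3 (2 and 1), leaving out both arrays of mouse 305 gave 175 (103 and 72), and leaving out the bright spots gave 28 (23 and 5). The Cy3 count of 604 was 527 with the replicate block and 286 over the 8 arrays. Of the named genes, 4 passed the test in the opposite direction somewhere: Ctsg (-0.19 in Cy5 alone), Fgb (-0.38 with scaling between arrays), Birc5 (-0.54 in the scanner log ratio) and Bak1 (-1.22 with scaling between arrays and -0.38 in Cy5 alone). The block ended 4 calls and added 27, as given beside those genes named in the text. Signal near background limits Xist and Alb.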

Other observations

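Genes of the mitochondrial ribosome had a median difference of 0.04 over 30 genes, beside 0.0071 for all genes, and none was called with all arrays (limma, with 9 at an unadjusted p under 0.05, 30% beside 17.2% of all genes). Mrpl3 changed by 0.48 in Cy5 alone with all arrays (SE 0.0748). Without the day 20 array of mouse 305 the log ratio of Mrpl3 rose by 0.36, and 3 further genes of the list were called. None of the 4 was called with both arrays of that mouse left out (adjusted p = 0.0583 for Mrpl3). Among 23 splicing factors and kinases, Hnrnpa1 and Clk3 rose by 0.52 and 0.23 without that array, while Clk2, a kinase of SR proteins, fell by 0.62 on the log2 scale. With both arrays of that mouse left out Hnrnpa1 and Clk2 stayed called and Clk3 did not (adjusted p = 0.0393, 0.0447 and 0.0852). Among genes called only with the mouse as a block, Btg1, an antiproliferative factor of resting lymphocytes, was higher by 0.56 and Vim, vimentin, by 0.32, while Ypel3 and Urah were lower, at -0.81 and -0.69. These genes were named after their values were seen.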
